A study of Saccharomyces cerevisiae with 161 samples.

Results

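The genes closest to the chromosome ends of budding yeast were examined for their transcript levels in early meiotic prophase. On each of the 16 chromosomes, the first 8 and the last 8 genes of the deposited table were taken in the order of their identifiers, in which the first digits name the chromosome and the last digits count along it. This gave 256 end genes at 32 ends, out of 5502 genes listed by SK1 identifiers, and left 5246 other genes for comparison. The end with the lowest counting numbers is called the left end and the other the right end, and the rank of a gene is its place counted inward from the end, with rank 1 for the outermost listed gene.

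The levels come from 1 library of poly(A) RNA from a wild-type strain (H119 in the labels) of the SK1 background, which enters meiosis synchronously. Cells were grown in BYTA medium and moved to SPO medium, in which meiosis starts. The label gives 3 h after meiotic induction, whereas the legend for this measurement in the paper gives an earlier hour. The label also marks the library as a reanalysis of an earlier one. Levels are in TPM, a measure of transcript abundance that is divided by gene length and scaled to the same sum in every library. TPM does not keep the depth, so how many reads lie behind a low value is unknown. A single library gives neither a replicate error nor a test, and all comparisons below describe this library. They concern genes, which are not replicates of a condition. The files do not pair SK1 identifiers with gene names, and none of the 5502 identifiers was found in the S288C gene table, so genes are named here by end and rank. Markers of meiotic cells could not be looked up for the same reason, and no sequence could be assigned to a gene.

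A yeast chromosome ends in short telomeric repeats, which are followed by subtelomeric repeat elements and then by the first genes. The Sir proteins, which assemble at telomeres and remove acetyl groups from histones, can silence genes placed next to a telomere, and the strength of this telomere position effect differs between ends. Subtelomeres also carry gene families with near-identical copies on several chromosomes, among them the COS and seripauperin genes, flocculins and genes for the use of maltose and other sugars. Many of these are transcribed only under particular conditions of nutrition or stress. Which end genes belong to such families cannot be read from the identifiers. The paper states that reads mapped with Bowtie were each placed at a single location, and whether this also holds for the RNA reads is not stated, so the level of a gene with a near-identical copy is uncertain.

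End genes had lower transcript levels than the rest of the genome. Their median was 31.4 TPM, with quartiles of 10.3 and 82.0 TPM and a range from 0.230 to 2269.8 TPM. The other genes had a median of 73.9 TPM, quartiles of 37.4 and 156 TPM and a range from 0.866 to 26864 TPM. The median of the other genes was thus 2.35-fold that of the end genes, and the ratio of end to other genes was −1.21 on the log2(TPM + 1) scale. The ranges overlapped, but the lowest values were those of end genes and the highest those of other genes. Of the end genes, 184 (71.9%) lay under the median of the other genes, as did 51% of all SK1 genes.

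The difference was most marked in the lowest values but was not limited to them. At or over the 75th percentile of all SK1 genes lay 13.3% of end genes, against 25.0% of all genes. A gene is called low here when its level is at or under the 10th percentile of all SK1 genes, 18.5 TPM, and high when it is at or over the 90th percentile, 357 TPM. Low genes made up 89 of the 256 end genes (34.8%), against 10% of all genes by construction. High genes made up 18 end genes (7.03%), against the same 10%. End genes were 4.65% of the SK1 genes but 16.2% of the low genes and 3.27% of the high genes, and they held 2.58% of all TPM. At the bottom of the table their share was larger still. They were 8 of the 10 lowest genes, 26 of the 50 lowest and 45 of the 100 lowest, against 0 of the 10 highest, 1 of the 50 highest and 3 of the 100 highest. Of the 7 SK1 genes under 1 TPM, 6 were end genes.

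**Figure D1:**
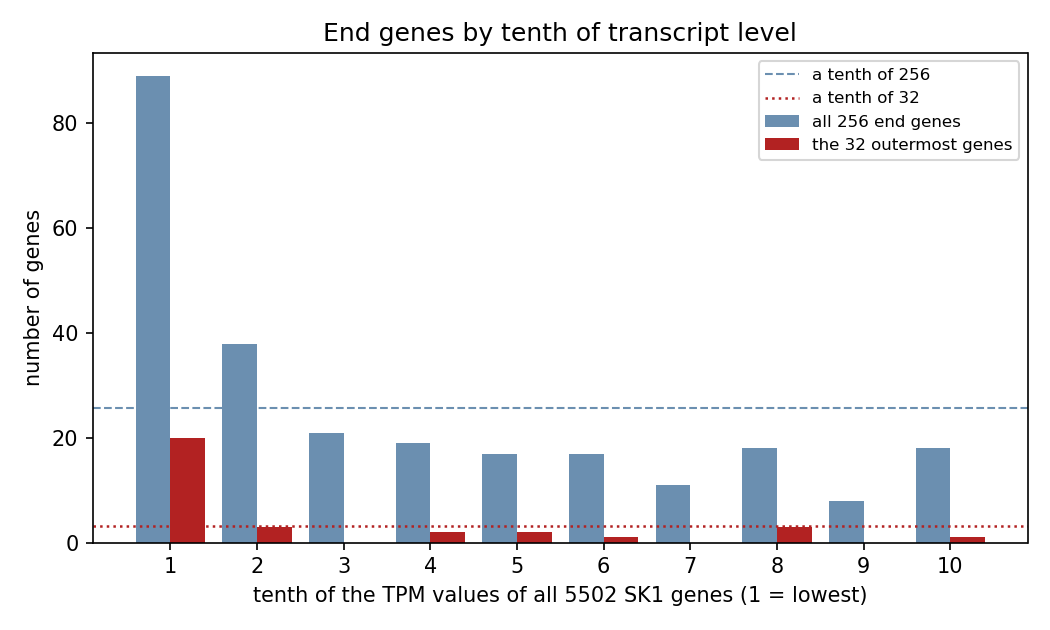
Number of end genes in each of 10 equal classes of transcript level, set on all 5502 SK1 genes and ordered from lowest to highest; blue bars are the 256 end genes, red bars the 32 outermost genes, and the lines mark an even spread over the classes. The lowest class holds 89 end genes and 20 outermost genes, and the highest class holds 18 and 1.

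Outside the lowest classes the counts were smaller and uneven. The class above the lowest, from 18.5 to 30.5 TPM, held 38 end genes, and the next 4 classes held between 17 and 21 each. The 4 highest classes held 11, 18, 8 and 18 genes. The spread among end genes was also wider than elsewhere. The interquartile range of log2 TPM was 3.00 for end genes and 2.06 for the other genes.

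The outermost genes were the lowest. At rank 1 the median of 32 genes was 8.92 TPM, with quartiles of 2.41 and 42.9 TPM and a range from 0.271 to 434 TPM. The median of the other genes was 8.29-fold higher. Of the outermost genes, 20 (62.5%) were low, against 10% of all SK1 genes, and 27 (84.4%) were under the median of the other genes, against 51%. Under 10 TPM were 18 of the 32. Of all SK1 genes, 3.78% were at or under 10.2 TPM. The lowest outermost genes were those of III left with 0.271 TPM, VIII right with 0.513 TPM and I right with 1.18 TPM. Further outermost genes between 1.5 and 3 TPM were those of XIV left (1.57 TPM) and of the right ends of XV (1.63 TPM), IX (1.84 TPM), XVI (1.91 TPM), XI (2.08 TPM) and XIV (2.53 TPM). Most of these outermost genes under 3 TPM were at right ends. The next lowest were mostly at left ends, namely VII left (3.56 TPM), I left (3.76 TPM), XII right (3.77 TPM) and X left (3.96 TPM). The median at rank 1 was 12.5 TPM over the 16 left ends and 4.37 TPM over the 16 right ends, with 8 left and 10 right genes under 10 TPM.

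Not every chromosome ended in a gene with a low level. At 5 ends the outermost listed gene reached or exceeded the median of the other genes. It had 434 TPM at VIII left, the only outermost gene called high, 162 TPM at III right, 148 TPM at IV left, 131 TPM at VII right and 77.4 TPM at XIII left. At the first 4 of these ends the outermost gene was also the highest of its 8 genes. Behind it the level dropped within the next 2 genes at VIII left, to 32.2 and 7.35 TPM, and at III right, to 6.20 and 3.32 TPM. At IV left the level fell over ranks 2 to 4, with 94.8, 25.1 and 2.10 TPM. At VII right the drop came at rank 3, with 122 TPM at rank 2 and 5.74 TPM at rank 3. At 11 ends the outermost gene was the lowest of the 8, and at 26 of the 32 ends it was under the median of its own end. Each end has a single lowest and a single highest gene among its 8, and 4 of the 8 lie under its median. The same counts were not made for stretches of 8 genes between the ends.

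**Figure D2:**
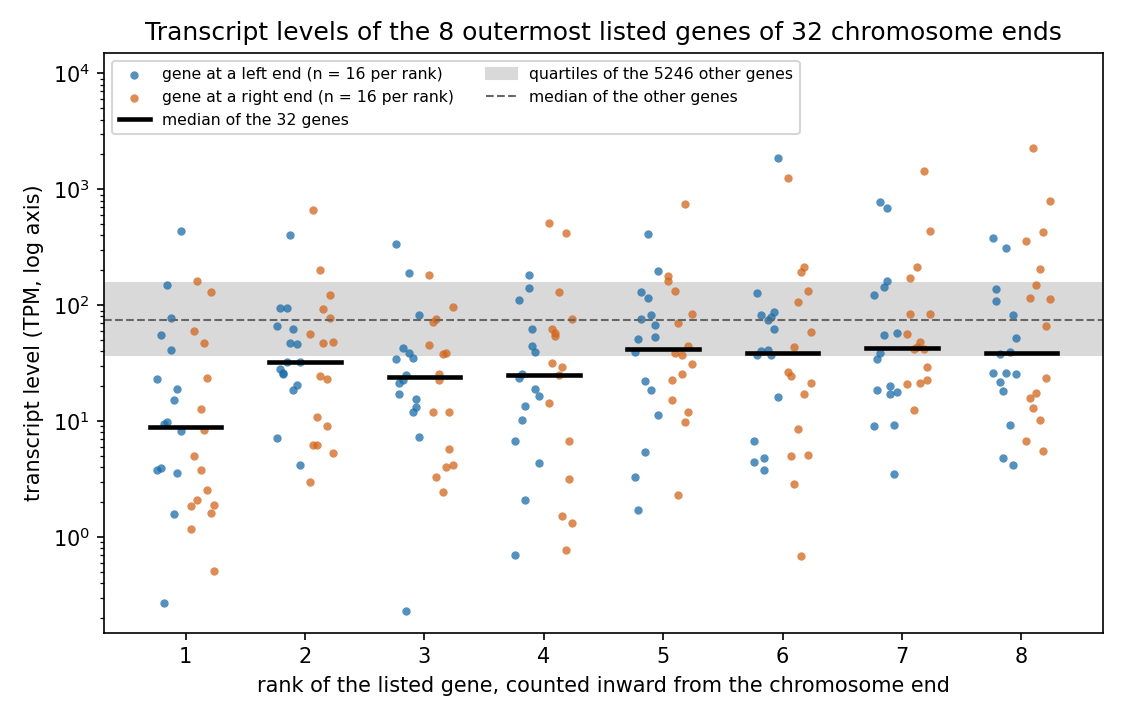
Transcript level (TPM, log axis) of each of the 256 end genes by rank from the chromosome end, with left ends in blue and right ends in orange; black bars are medians of 32 genes, and the band and dashed line are the quartiles and median of the 5246 other genes. The median is 8.92 TPM at rank 1 and between 23.9 and 42.6 TPM at ranks 2 to 8, all under the 73.9 TPM of the other genes.

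The other 7 ranks were low as well, but less so. The median was 32.2 TPM at rank 2, 23.9 TPM at rank 3 and 25.2 TPM at rank 4. At ranks 5 to 8 it was 42.1, 38.7, 42.6 and 38.5 TPM. At rank 8 the median was 31.9 TPM over the 16 left ends and 89.4 TPM, above the median of the other genes, over the 16 right ends. Side medians of single ranks farther inward also lay apart, in both directions. They were 80.3 TPM left and 43.9 TPM right at rank 10, and 35.5 and 110 TPM at rank 36. Without the outermost genes, the 224 genes of ranks 2 to 8 had a median of 37.1 TPM, and 30.8% of them were low. Low genes were more frequent among ranks 1 to 4, with 54 of 128 (42.2%), than among ranks 5 to 8, with 35 of 128 (27.3%). High genes were 5 of 128 (3.91%) in ranks 1 to 4, under the 10% of all SK1 genes. In ranks 5 to 8 they were 13 of 128 (10.2%), close to that 10%. The order of single ranks was not strict, since rank 3 had more low genes (40.6%) than rank 2 (25.0%). The ranges between the quartiles of neighbouring ranks overlapped widely. Those of rank 1 (2.41 to 42.9 TPM) and rank 2 (16.6 to 69.1 TPM) overlapped too.

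Past the 8th gene the levels approached those of the rest within a few genes. The last rank inside the limit, rank 8, had a median of 38.5 TPM and the first rank outside, rank 9, a median of 45.9 TPM, so the limit does not fall on a step. Without chromosomes I, III and VI, the 3 shortest, the median at rank 8 was 59.1 TPM. Ranks 9 to 12 had a median of 62.8 TPM with 18.8% low genes, and ranks 13 to 16 a median of 72.9 TPM with 13.3% low genes. From ranks 17 to 24 inward the share of low genes was 10.2% in each group of 8 ranks up to rank 40, and 8.13% among the 4221 genes farther from any end. The medians there were between 66.8 and 80.4 TPM. The median of a single rank first reached that of the other genes at rank 12. It was under it at all of ranks 1 to 8, at 4 of ranks 9 to 16 and at 14 of the 24 ranks from 17 to 40. The share of high genes was 14.8% in ranks 9 to 12, above that of ranks 5 to 8 and above the 10% of all SK1 genes.

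**Figure D3:**
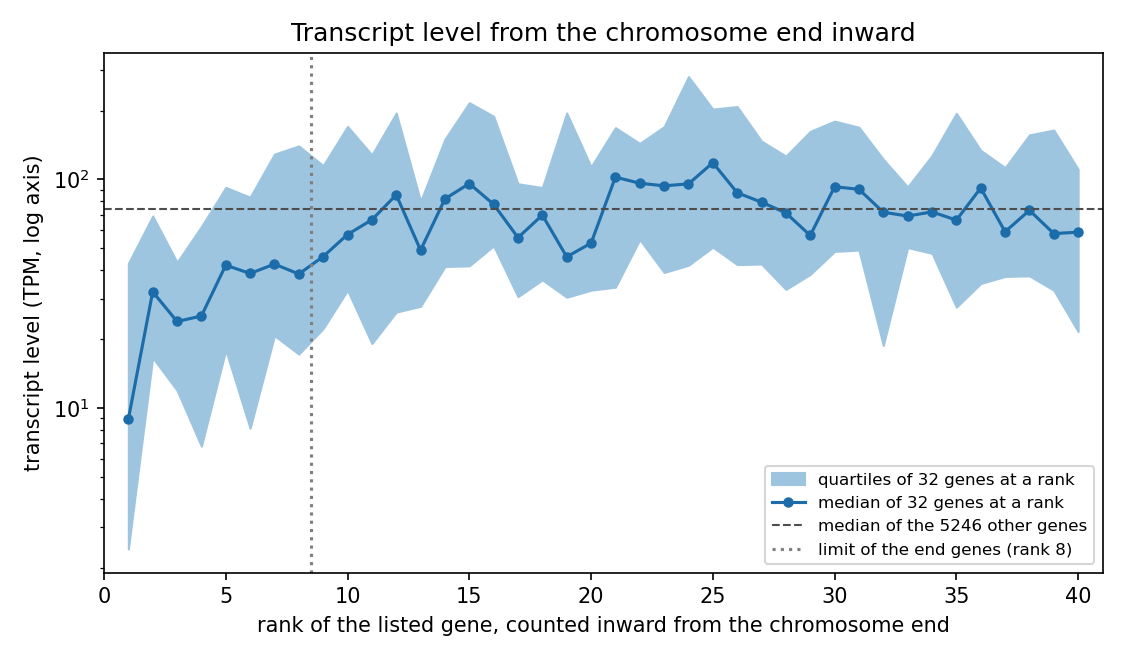
Median (points) and quartiles (band) of transcript level (TPM, log axis) over the 32 ends at each rank from 1 to 40 counted inward; the dashed line is the median of the 5246 other genes and the dotted line the limit at rank 8. The median rises from 8.92 TPM at rank 1 to 38.5 TPM at rank 8 and 85.6 TPM at rank 12, and then varies around the level of the other genes.

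The ends differed from each other. The median of the 8 genes of an end ranged from 6.93 TPM at I left to 318 TPM at VI right, and the median of these 32 values was 33.0 TPM. It lay under the median of the other genes at 28 ends (87.5%) and under their lower quartile at 19 ends (59.4%). For comparison, the genes between the ends were divided along each chromosome into 650 consecutive blocks of 8. The medians of these interior blocks ranged from 19.7 to 465 TPM, with quartiles of 56.3 and 104 TPM. Of the blocks, 45.1% lay under the median of the other genes and 4.31% under their lower quartile. At 11 ends the median was lower than in any interior block.

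The end with the lowest level was I left. Its genes had 3.76, 7.17, 34.0, 0.698, 3.27, 6.70, 9.08 and 25.9 TPM from rank 1 to rank 8, so that 6 of 8 were low and none reached the median of the other genes. XIV right followed with a median of 9.46 TPM. Its genes had 2.53, 9.11, 38.6, 0.773, 9.80, 17.1, 41.7 and 5.52 TPM, and again 6 were low and none reached the median of the other genes. III right had the next lowest median, 12.8 TPM, although its outermost gene had 162 TPM. The 7 genes behind it had 6.20, 3.32, 53.9, 39.0, 2.86, 12.6 and 13.1 TPM, all under the median of the other genes. XV left was the only further end at which all 8 genes stayed under that median, with values from 3.53 to 67.6 TPM.

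The 4 ends at or over the median of the other genes were VI right, XIII left, IX right and V left. At VI right the 3 outermost genes were under that median, with 23.8, 23.2 and 4.00 TPM. The next 5 genes had 421, 743, 215, 1448 and 425 TPM, and 4 of them were high. XIII left had a median of 187 TPM and values of 77.4, 47.1, 191, 184, 413, 74.8, 686 and 310 TPM, and it held no low gene. IX right had a median of 118 TPM, but its outermost gene had 1.84 TPM and the next one 56.6 TPM. Its genes at ranks 3 to 5 had 181, 507 and 178 TPM, and those at ranks 6 to 8 had 26.4, 57.0 and 358 TPM. V left had a median of 78.3 TPM, no low gene, and values from 25.8 to 404 TPM. II left was the only other end without a low gene, with values from 21.3 to 137 TPM.

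**Figure D4:**
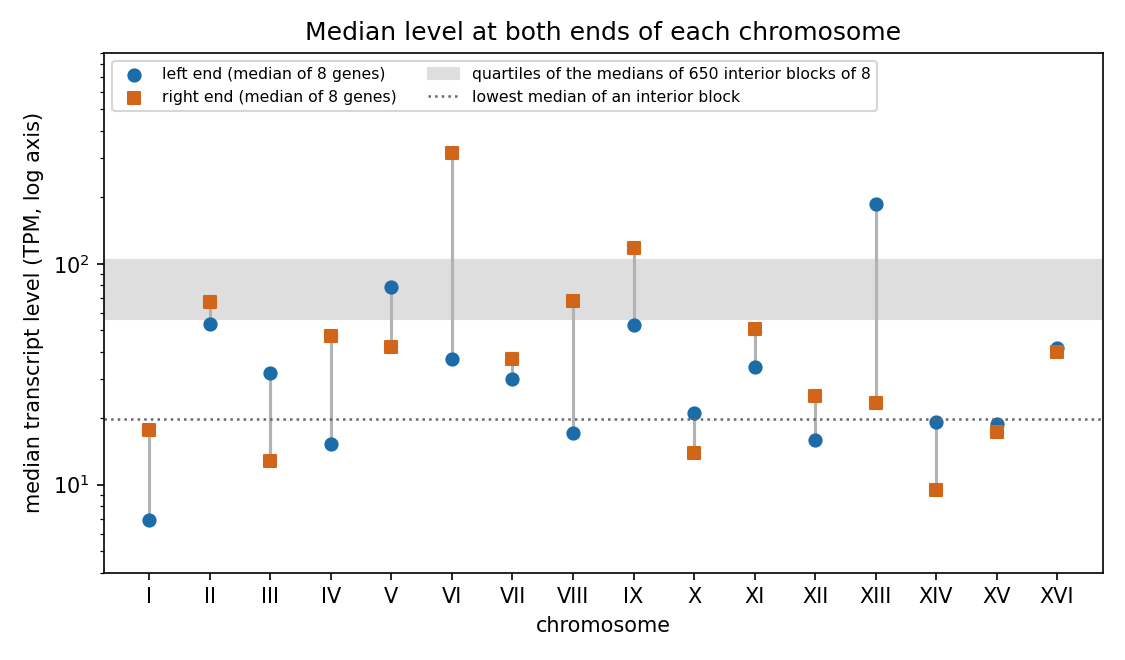
Median transcript level (TPM, log axis) of the 8 genes at the left (blue circles) and right (orange squares) end of each chromosome; the band is the range between the quartiles of the medians of 650 interior blocks of 8 genes, and the dotted line the lowest of them, 19.7 TPM. The medians run from 6.93 TPM at I left to 318 TPM at VI right, and 11 ends lie under the dotted line.

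The 2 ends of a chromosome were close in level on some chromosomes and far apart on others. On 12 of the 16 chromosomes both ends lay under the median of the other genes. The gap was largest on VI, where the right median was 8.58-fold the left one (318 and 37.1 TPM), and on XIII, where the left median was 8.01-fold the right one (187 and 23.4 TPM). It was smallest on XVI (41.5 TPM left, 39.9 TPM right) and XV (18.9 and 17.3 TPM). The left median was lower on 9 chromosomes and the right median on 7. Taken over all genes, the 128 left genes had a median of 32.2 TPM with 32.8% low, and the 128 right genes a median of 30.3 TPM with 36.7% low.

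The ends of chromosomes I, III and VI were also considered apart, because these chromosomes list the fewest genes. Their 48 end genes had a median of 24.6 TPM, 39.6% of them were low and 10.4% were high. The 208 end genes of the other 13 chromosomes had a median of 33.4 TPM, with 33.7% low and 6.25% high. The 309 other genes of chromosomes I, III and VI had a median of 77.1 TPM and 10.7% low genes. Low end genes were thus present on short and long chromosomes.

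Levels varied widely within an end and from one end gene to the next. Within an end, the highest gene exceeded the lowest by a median of 66.9-fold, from 5.21-fold at VI left to 1093-fold at XI right. This ratio was not computed for the interior blocks. Neighbouring end genes differed by a median of 1.92 on the log2 scale over 224 pairs, and neighbouring other genes by 1.43 over 5229 pairs. The spread of all end genes was wider as well, with interquartile ranges of log2 TPM of 3.00 and 2.06. Whether neighbours differ more than this spread entails was not tested. Low genes occurred at 29 ends, and 9 ends held 4 or more of them. At 10 ends a low and a high gene were found together among the 8 genes. The 3 outermost genes were all under the median of the other genes at 16 of the 32 ends. Among all SK1 genes, 10% are low, 10% are high and 51% lie under that median. The same counts were not made for the interior blocks, so how far they are particular to the ends is not known.

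**Figure D5:**
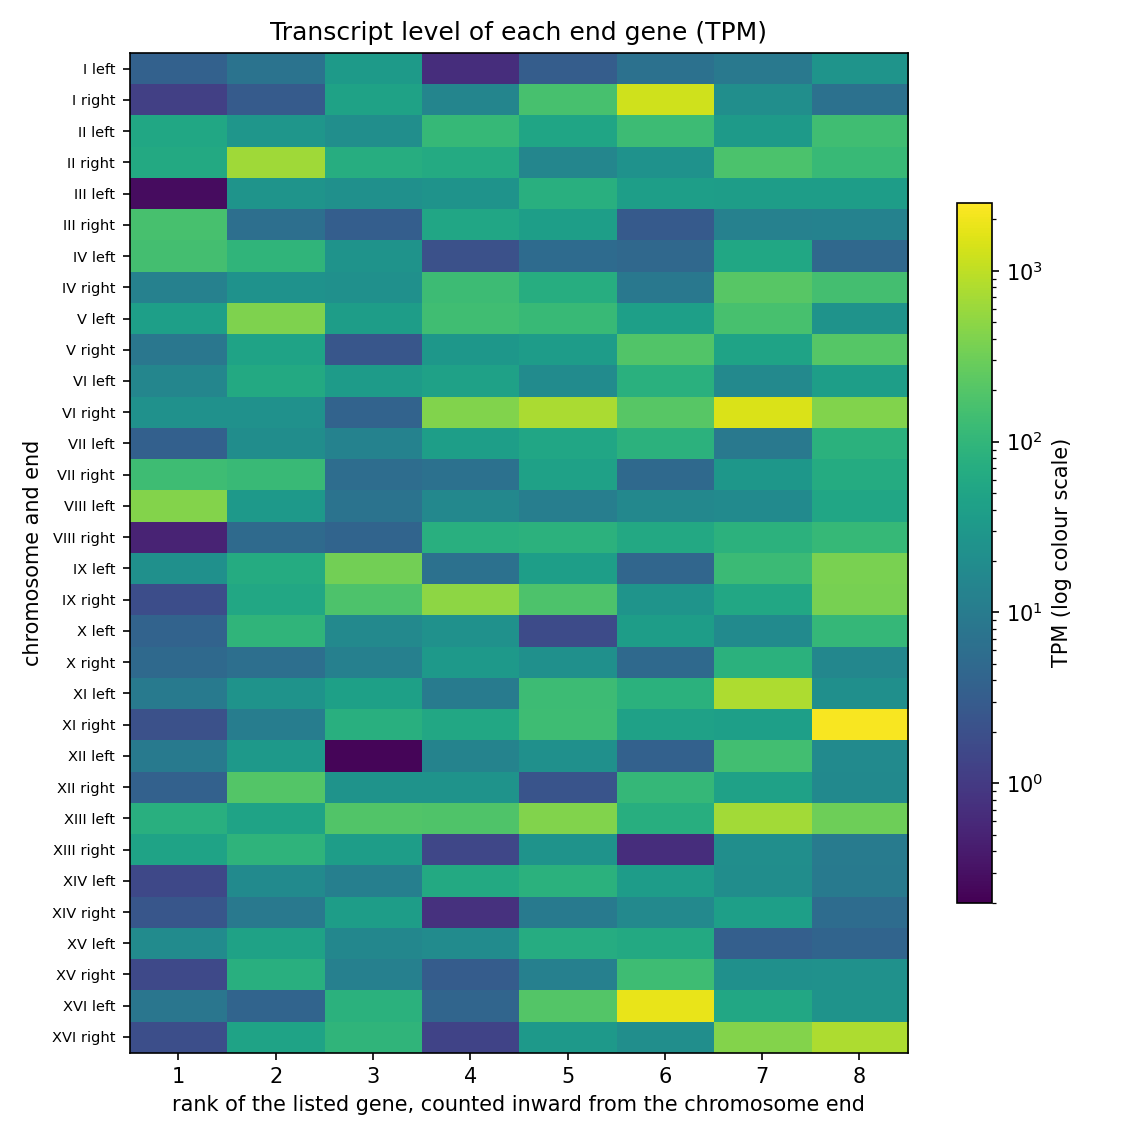
Transcript level (TPM, log colour scale) of the 256 end genes, with 1 line for each chromosome end and ranks 1 to 8 from left to right. Dark cells are most frequent in the rank 1 column, with 20 of 32 genes at or under 18.5 TPM, and bright cells lie scattered at 12 ends, 4 of them at VI right.

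The lowest end gene was SK1_12G00030, the rank 3 gene of XII left, with 0.230 TPM. It lay between genes of 32.2 and 13.6 TPM. The next lowest was SK1_03G00020, the outermost listed gene of III left, with 0.271 TPM, beside a gene of 26.2 TPM. The others under 1 TPM were the outermost gene of VIII right (0.513 TPM), the rank 6 gene of XIII right (0.682 TPM), the rank 4 gene of I left (0.698 TPM) and the rank 4 gene of XIV right (0.773 TPM). Genes of this level thus occurred both at the tip and several genes inward.

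The highest end gene was SK1_11G03010, the rank 8 gene of XI right, with 2269.8 TPM, next to a gene of 41.6 TPM at rank 7. SK1_16G00120, the rank 6 gene of XVI left, followed with 1861 TPM between genes of 197 and 57.6 TPM. The other genes over 1000 TPM were the rank 7 gene of VI right (1448 TPM) and the rank 6 gene of I right (1249 TPM). The latter lay between genes of 162 and 20.9 TPM on an end whose median was 17.7 TPM. High genes were found at 12 ends, and 13 of the 18 were at ranks 5 to 8. They made up 10.2% of the genes at these ranks, close to their 10% among all SK1 genes. Among the 4 outermost ranks they were the rank 1 gene of VIII left (434 TPM), the rank 2 genes of II right (662 TPM) and V left (404 TPM), and the rank 4 genes of IX right (507 TPM) and VI right (421 TPM).

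The table was less complete at the ends than elsewhere. The counting numbers of the identifiers advance in steps of 10, with 1 exception, so that absent numbers can be counted. Between the first number of each chromosome and its highest listed number, 43 of 5544 numbers were absent from the table used here, and 39 of these 43 fell among the end genes or outside them. The end stretches thus had 86.7% of their numbers listed (255 of 294), and the stretches between them 99.9% (5246 of 5250). Of the absent numbers at ends, 26 were at left and 13 at right ends, and 21 of the former preceded the first listed gene of their chromosome. The left ends of XVI, II and X had the most, with 6, 5 and 5 numbers before the first listed gene, and XV right had 5. Numbers past the highest listed one cannot be counted. The outermost listed gene is therefore not always the outermost gene of the annotation, and the levels behind absent numbers were not analysed here. The 120 genes of the 15 ends with absent numbers had a median of 30.3 TPM with 33.3% low, and the 136 genes of the 17 ends without any had a median of 31.9 TPM with 36.0% low.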

How the data were processed

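Per the labels, RNA was taken at 3 h, selected with oligo-dT beads and made into a stranded library. The authors mapped reads to the SK1 genome and deposited TPM values. The submitters' processing notes name TopHat2, featureCounts and edgeR without versions, and a filter on genes is not given in the sources used here. The table lists 5508 genes, of which 6 carry symbols and were left out. 1 SK1 identifier of another form was kept among the other genes and given no rank. Levels were compared as medians, quartiles and counts with a pseudocount of 1 TPM for the log2 ratio. Alternatives concerned the number of genes per end, a filter at 1 TPM, ranks by annotation number, percentile limits, pseudocounts, single sides and left-out chromosomes or ends. End genes and lists were chosen with earlier results of these data known. Interior blocks, classes, neighbours and counts of lowest and highest genes were chosen after the values were seen. Genes named by identifier are the 2 highest and 2 lowest end genes. Further genes named are the outermost ones and those of the 3 lowest and 3 highest ends, and other genes were singled out after their values were seen. The calculation was tested on simulated data. Peak lists were not used, since the transcript table gives no positions. Python 3.11.15, NumPy 2.4.6, pandas 2.3.3 and SciPy 1.17.1 were used.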

Additional observations from a re-analysis of the deposited data

How the results depend on the processing

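Of the 58 alternative values, 12 were chosen after seeing the data. The log2 ratio of medians stayed negative in its 12 alternatives, between −1.59 and −0.91, and the median of the end genes between 23.7 and 39.2 TPM. With 4 genes per end, the median was 23.7 TPM, the log2 ratio −1.59, the share of low genes 42.2%, of high genes 3.91%, and of genes under the median of the others 79.7%, as the outermost ranks weigh more. With 12 genes per end, the median was 39.2 TPM, the log2 ratio −0.91, and these shares were 29.4%, 9.64% and 67.2%, so that high genes came close to their 10% among all genes. At the 5th percentile, 27.0% of end genes were low, against 5.02% of all genes, and at the 25th percentile 52.3%, against 25.0%. At the 75th percentile, 13.3% were high, against 25.0%. The share of numbers listed was 78.9% with 4 and 90.5% with 12 genes per end, both chosen after seeing the data. Without chromosomes I, III and VI, the median at rank 8 was 59.1 in place of 38.5 TPM, and the cause was not tested. Between 27 and 29 ends lay under the median of the other genes with 4 or 12 genes per end. No paired analysis was possible because there is 1 library. Depth is unknown, so counting error at low TPM could not be given.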
